A study of Mus musculus with 6 samples.

Results

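The array of ALCAM+ PDPN+ cells was set against the array of ALCAM+ ITGA8- cells, which are 2 of the 6 arrays of the series. Both fractions came from E12.5 livers of wild-type mouse embryos of the C57Bl6 strain, and both were positive for the same surface marker, ALCAM, an immunoglobulin-type protein of cell adhesion. PDPN, or podoplanin, is a mucin-type glycoprotein of mesothelium, and ITGA8 is an integrin alpha subunit of mesenchymal cells. Each fraction was the one with the higher mesothelial signal of its sort; the opposite fractions, PDPN- and ITGA8+, are from the same strain, genotype and age and serve here only to show where the pair differs. RNA was measured on Affymetrix Mouse Genome 430 2.0 arrays, 1 array per fraction. There are no replicates, so no difference below has a test or an error, and each is a difference between 2 arrays. The sources used here do not give the number of embryos, the gates or whether both sorts used the same cells.

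The mesothelium is the thin epithelial sheet that covers the liver. In the embryo it forms at the surface of the septum transversum, the mesenchyme into which the liver bud grows, and mesothelial cells give rise to submesothelial mesenchyme, stellate cells and fibroblasts. The liver is at this age also the main site of blood formation, with erythroid cells, megakaryocytes, macrophages and granulocytes lying among hepatoblasts, the precursors of hepatocytes and bile duct cells.

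Values are linear intensities, which go down to 0; RMA is named as the method, but no log2 RMA values are in the table, so how background was treated at low intensities is unsure. A gene was represented by 1 probe set, the one with the highest mean over the PDPN+ and ITGA8- arrays, and was kept where the higher of the pair exceeded the median of all values on the 6 arrays, called the floor here, which is 6.97 as log2(intensity + 16). Differences are log2(intensity + 16) in PDPN+ minus the same in ITGA8-, so a positive one means a higher signal in PDPN+ cells. Of 20678 genes, 13915 were kept, and 12418 of these were above the floor on both arrays. Where either array is below the floor, the added 16 affects how large the fold is.

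Promoters of genes from the groups that differed, and of the mesothelial gene Upk3b, are printed because the members of these groups moved together. Each is the 250 bases before the annotated start, from RefSeq on GRCm38.p6, read 5′ to 3′ on the gene's strand. The capitals mark the motif letters searched for, all found as the reverse complement: GGAATG (the TEAD motif) in Upk3b, GAGGAAGT (the PU.1 motif) in S100a8 and C1qc, and AGATAA (read by GATA factors) in Epor and Alas2. Upk3b, a uroplakin of the mesothelial surface, is shown from chr5:136038246-136038495, plus strand. S100a8, a calcium-binding protein of neutrophils, is shown from chr3:90668821-90669070, plus strand. C1qc, a chain of complement C1q made by macrophages, is shown from chr4:136892915-136893164, minus strand. Epor, the erythropoietin receptor, is shown from chr9:21963577-21963826, minus strand, and Alas2, the erythroid enzyme of haem synthesis, from chrX:150547167-150547416, plus strand.
Upk3b: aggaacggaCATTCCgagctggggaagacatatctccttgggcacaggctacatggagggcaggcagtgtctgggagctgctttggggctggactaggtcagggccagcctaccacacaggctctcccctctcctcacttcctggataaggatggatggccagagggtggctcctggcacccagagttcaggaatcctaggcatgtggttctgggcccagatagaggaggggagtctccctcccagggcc
S100a8: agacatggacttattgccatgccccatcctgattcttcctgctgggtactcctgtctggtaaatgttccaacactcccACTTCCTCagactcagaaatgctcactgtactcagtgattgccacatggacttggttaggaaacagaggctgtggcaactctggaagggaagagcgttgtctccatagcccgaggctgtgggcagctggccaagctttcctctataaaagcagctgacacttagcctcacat
C1qc: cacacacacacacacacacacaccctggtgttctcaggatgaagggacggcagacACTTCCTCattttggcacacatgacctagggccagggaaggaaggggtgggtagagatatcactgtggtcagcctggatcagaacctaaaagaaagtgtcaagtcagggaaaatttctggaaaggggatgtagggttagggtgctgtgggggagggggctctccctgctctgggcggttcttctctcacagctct
Epor: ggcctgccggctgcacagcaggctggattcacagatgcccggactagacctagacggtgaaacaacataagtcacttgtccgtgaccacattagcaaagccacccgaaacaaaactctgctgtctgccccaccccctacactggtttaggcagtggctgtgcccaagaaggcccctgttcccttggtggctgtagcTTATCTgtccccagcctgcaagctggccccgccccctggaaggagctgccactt
Alas2: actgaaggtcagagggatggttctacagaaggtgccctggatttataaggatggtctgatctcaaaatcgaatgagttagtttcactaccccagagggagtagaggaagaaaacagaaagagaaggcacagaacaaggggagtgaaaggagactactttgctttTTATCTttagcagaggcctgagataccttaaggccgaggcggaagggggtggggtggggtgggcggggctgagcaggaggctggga

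Each of the 5 genes had 1 match in its window, whose first base lay 241 bases before the start in Upk3b, 172 in S100a8, 195 in C1qc, 54 in Epor and 86 in Alas2. The 5 genes were picked for display and do not stand for their lists, where most windows had no match. Over all 32851 promoter windows, which run from 250 bases before to 50 bases after a start, AGATAA was found on either strand in 11.2%, GAGGAAGT in 3.2% and GGAATG in 14.7%. AGATAA was in 8 of 22 windows of the erythroid list (36.4%), in 5 of 14 of the megakaryocyte list (35.7%) and in 0 of 21 of the macrophage list. GAGGAAGT was in 3 of 15 windows of the neutrophil and eosinophil list (20%), in 2 of 21 of the macrophage list (9.52%) and in 0 of 22 of the erythroid list. GGAATG was in 6 of 18 windows of the mesothelial list (33.3%). Other lists held the motifs as well: GGAATG had the same share in the smooth muscle and cardiac muscle lists and was in 28.6% of the megakaryocyte windows, GAGGAAGT was in 2 of 11 windows of the housekeeping list (18.2%), and AGATAA was in 2 of 5 of the sex-linked list (40%) and 3 of 15 of the neutrophil and eosinophil list (20%). The motifs do not overlap one another, and a match is a run of letters, not a bound site.

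The markers of the sorts and of mesothelium were close on the 2 arrays. Alcam had an intensity of 19332 in PDPN+ cells and 17313 in ITGA8- cells. Pdpn had 7746 in PDPN+ cells and 6176 in ITGA8- cells, against 117 in PDPN- cells and 4658 in ITGA8+ cells. Itga8 had 737 in PDPN+ cells and 871 in ITGA8- cells, against 2215 in PDPN- cells and 4354 in ITGA8+ cells. Pdpn thus stood near the floor on 1 array only, that of PDPN- cells, and Itga8 was above the floor on all 4, including the array of the cells sorted as negative for it. Upk3b had 14424 in PDPN+ cells and 11076 in ITGA8- cells, against 139 in PDPN- cells and 4578 in ITGA8+ cells. Bnc1, a zinc finger factor of the mesothelial and other epithelia, had 9573 in PDPN+ cells and 8382 in ITGA8- cells, against 86 in PDPN- cells and 2124 in ITGA8+ cells. Both mesothelial markers were highest on the PDPN+ array and second highest on the ITGA8- array, and the difference between these 2 was 0.38 for Upk3b and 0.19 for Bnc1. Each fraction was taken as the one with the higher mesothelial signal of its sort. Its lead over the opposite fraction in such markers is therefore no separate result.

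Most genes differed little. Of the 13915 genes, 1173 (8.43%) were at least 2-fold higher in PDPN+ cells, 1246 (8.95%) were at least 2-fold lower, and 11496 (82.6%) lay within 2-fold. At 4-fold, 275 genes were higher and 301 lower. The median difference over all genes was -0.04, with quartiles of -0.44 and 0.33. When the difference was adjusted by a loess curve on the mean level, 1455 genes were higher and 774 lower, so the balance of the 2 directions depends on the scaling. Over all probe sets the 2 arrays had a Pearson correlation of 0.956 and a Spearman correlation of 0.948, across probe sets that are not independent. Other probe sets of the same gene give the 1 internal check that these arrays allow. Of 290 higher genes with another probe set above the floor, 235 (81.03%) had all of them on the same side, and of 322 lower genes, 278 (86.34%) did. At 2-fold the agreement was weaker: 165 of the 290 (56.9%) and 209 of the 322 (64.91%) had any other probe set past 2-fold on that side. The 4 fraction arrays had trimmed means of 996.0 to 996.8, but their medians ran from 123 in PDPN- cells to 200 in ITGA8- cells, so they share a trimmed mean and not a distribution.

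**Figure D1:**
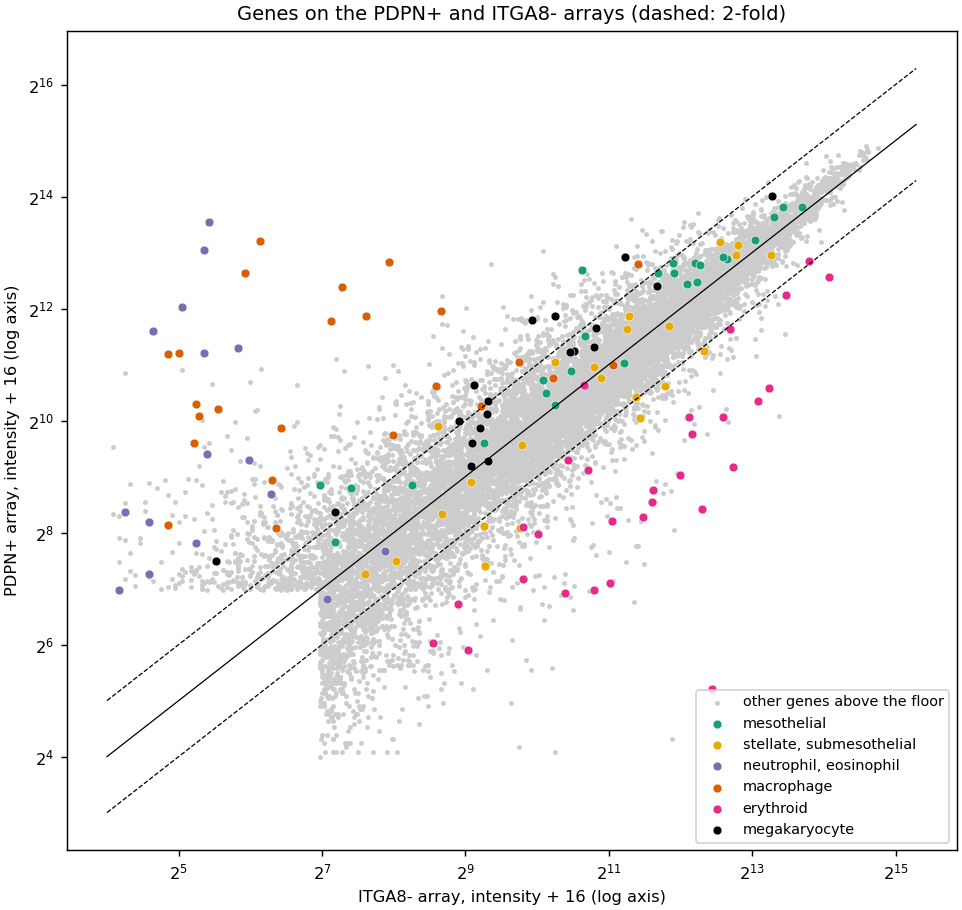
Each point is a gene, with its intensity + 16 on the ITGA8- array (horizontal, log axis) and on the PDPN+ array (vertical, log axis); the solid line is equality, the dashed lines are 2-fold, and colours mark 6 gene lists. Mesothelial genes lie along the line of equality, macrophage and neutrophil genes lie far above it, and 27 of 29 erythroid genes lie below the lower 2-fold line.

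Most mesothelial genes had like levels in the 2 fractions, as most genes did. Of 26 measured members of a mesothelial list, 25 were above the floor, 22 of them lay within 2-fold (against 82.6% of all genes), 3 were at least 2-fold higher in PDPN+ cells (against 8.43% of all genes) and 0 lower. Their median difference was 0.40, against -0.04 over all genes, and 24 of 25 were higher in PDPN+ cells by any amount. The summed intensity of the list was 131865 in PDPN+ cells and 96745 in ITGA8- cells, against 49718 in PDPN- cells and 47781 in ITGA8+ cells. Krt18 (19569), Cdh1 (10883) and Krt8 (10767) made up most of the sum in PDPN- cells. By gene, 16 of the 25 were at least 2-fold lower in PDPN- cells than in ITGA8+ cells and 3 were higher, so the like sums do not mean like signals. On bulk arrays fewer cells of a type and less RNA per cell cannot be told apart, so the sums give no share of cells.

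Wt1, a zinc finger factor of the coelomic lining, had 7554 in PDPN+ cells and 6421 in ITGA8- cells, against 691 in PDPN- cells and 5762 in ITGA8+ cells. Podxl, a sialomucin of apical surfaces, had 14427 in PDPN+ cells and 13258 in ITGA8- cells, against 261 in PDPN- cells and 5650 in ITGA8+ cells. Lrrn4, a leucine-rich repeat membrane protein of mesothelium, had 1421 in PDPN+ cells and 1095 in ITGA8- cells, against 31 in PDPN- cells and 148 in ITGA8+ cells. In all 3 the PDPN+ and ITGA8- arrays were the 2 highest. The keratins Krt7 (5545 in PDPN+ cells and 4346 in ITGA8- cells), Krt19 (5676 in PDPN+ cells and 4781 in ITGA8- cells) and Krt14 (1228 in PDPN+ cells and 1204 in ITGA8- cells) had the same pattern, with 43 to 164 in PDPN- cells and 308 to 988 in ITGA8+ cells. Krt8 and Krt18, the keratins of simple epithelia, did not: Krt8 had 6385 in PDPN+ cells and 3817 in ITGA8- cells, against 10767 in PDPN- cells and 5813 in ITGA8+ cells. Krt18 had 12766 in PDPN+ cells and 10141 in ITGA8- cells, against 19569 in PDPN- cells and 6825 in ITGA8+ cells, so both were highest in PDPN- cells. Upk1b, a partner of the other uroplakins, had 2891 in PDPN+ cells and 1609 in ITGA8- cells. Muc16, a membrane mucin, had 1675 in PDPN+ cells and 1070 in ITGA8- cells, and Rspo1, a secreted activator of Wnt signalling, had 1872 in PDPN+ cells and 1412 in ITGA8- cells. Gpm6a, a membrane glycoprotein, was just inside 2-fold, with 7217 in PDPN+ cells and 3793 in ITGA8- cells, as was Tm4sf5, a tetraspan membrane protein, with 6308 in PDPN+ cells and 3275 in ITGA8- cells.

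The 3 mesothelial genes past 2-fold did not share 1 pattern. Cdh1, the E-cadherin of epithelial junctions, had 6593 in PDPN+ cells and 1570 in ITGA8- cells, a difference of 2.06, but was higher still in PDPN- cells, with 10883, against 1142 in ITGA8+ cells. Slpi, a secreted protease inhibitor, had 445 in PDPN+ cells and 110 in ITGA8- cells, against 5 in PDPN- cells and 348 in ITGA8+ cells. Msln (mesothelin), a surface protein anchored by a lipid, had 430 in PDPN+ cells and 153 in ITGA8- cells, against 22 in PDPN- cells and 48 in ITGA8+ cells. The 1 member with a lower signal in PDPN+ cells was Aldh1a2, the retinaldehyde dehydrogenase that makes retinoic acid, with 2082 in PDPN+ cells and 2363 in ITGA8- cells. Aldh1a2 was also the member closest between ITGA8- cells and ITGA8+ cells, the ITGA8+ array having 2509, while PDPN- cells had 42.

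**Figure D2:**
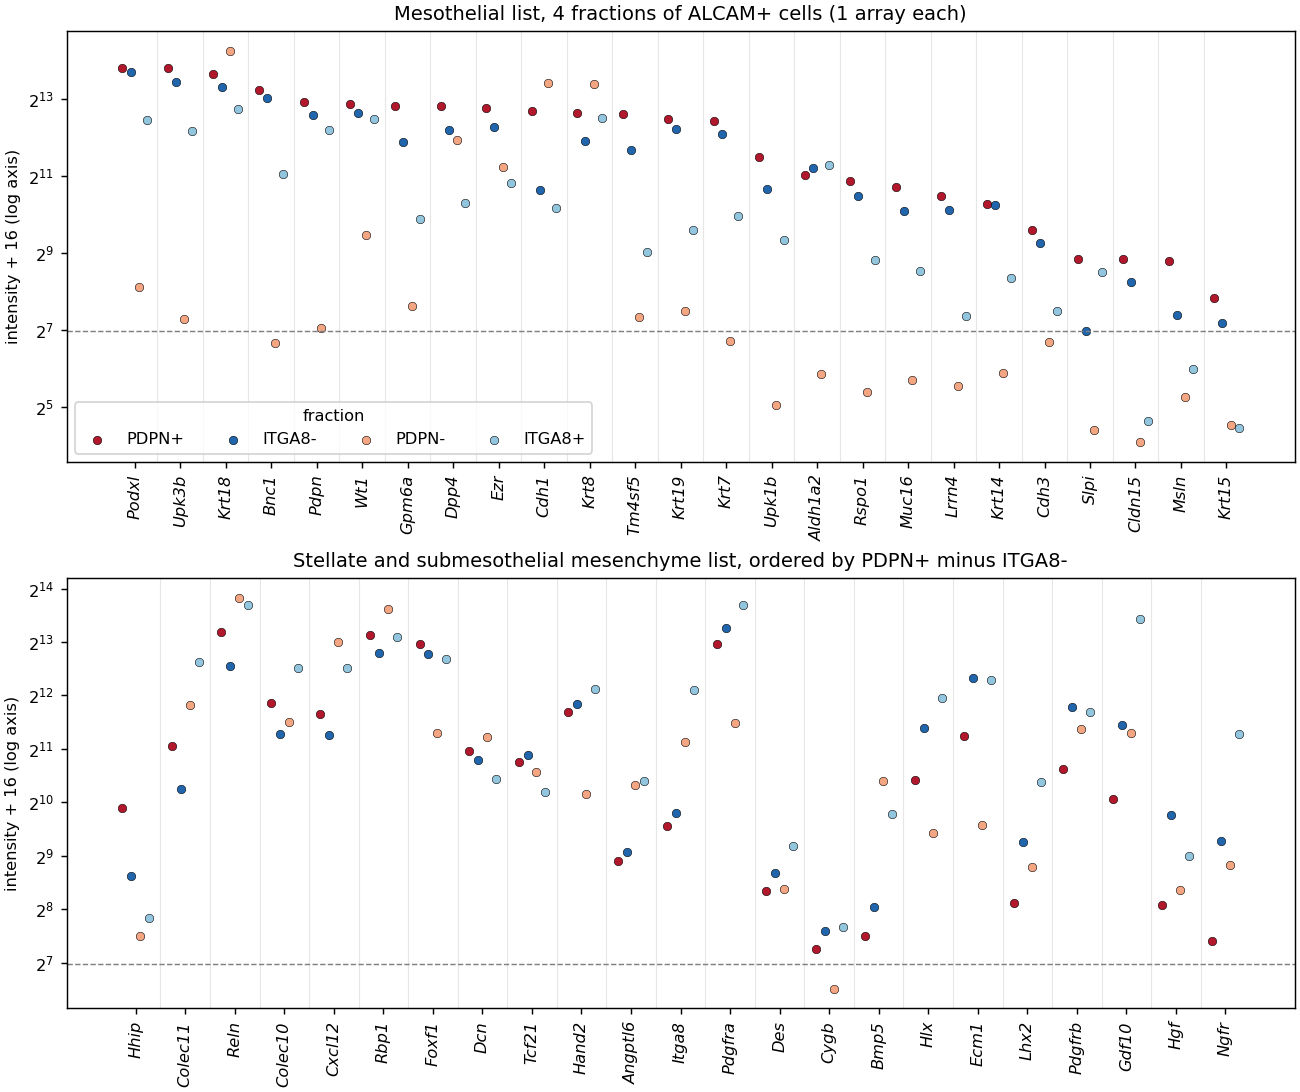
Intensity + 16 (log axis) of each gene of the mesothelial list (top) and of the stellate and submesothelial mesenchyme list (bottom) on the 4 fraction arrays, 1 point per array, with a dashed line at the floor. In the top panel 22 of 25 genes have PDPN+ and ITGA8- points within 2-fold of each other, while PDPN- points lie far lower for most; in the bottom panel the genes at the right, from Ecm1 to Ngfr, are at least 2-fold lower in PDPN+ cells.

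Genes high in both fractions were also listed without cell type markers, as the genes at least 2-fold higher both in PDPN+ cells than in PDPN- cells and in ITGA8- cells than in ITGA8+ cells. There were 327 such genes, and they included 17 of the mesothelial list. Since they were chosen on these arrays, what follows is a description. Between PDPN+ and ITGA8- cells 255 of them (78.0%) lay within 2-fold, 57 (17.4%) were higher in PDPN+ cells and 15 (4.59%) lower, with a median of 0.34. Over all genes 82.6% lay within 2-fold, 8.43% were higher and 8.95% lower, so these genes were no closer between the 2 fractions than genes in general and were more often higher in PDPN+ cells. Among the 126 with an intensity above 1000 on both arrays, 108 lay within 2-fold. The closest of these were Il13ra1, a subunit of the interleukin 13 receptor (1466 in PDPN+ cells and 1458 in ITGA8- cells), and Prex1, an exchange factor for Rac (1770 in PDPN+ cells and 1784 in ITGA8- cells). Tmem26, a membrane protein, had 1415 in PDPN+ cells and 1399 in ITGA8- cells. Fras1, a matrix protein of epithelial basement membranes, had 2331 in PDPN+ cells and 2270 in ITGA8- cells, against 266 in PDPN- cells and 433 in ITGA8+ cells. The homeodomain factor Barx1, a patterning gene of the embryo, had 1286 in PDPN+ cells and 1351 in ITGA8- cells and was among the closest as well. Krt14, Arhgap22, Stx3 and Clmn were also among them.

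Among these 327 genes the largest difference was that of Tbx18, a T-box factor of the epicardium and other coelomic linings. It had 198 in PDPN+ cells and 1713 in ITGA8- cells, a difference of -3.01, against 10 in PDPN- cells and 612 in ITGA8+ cells. Its other probe set above the floor had a difference of -3.58. Kdr, the VEGF receptor of endothelium and mesoderm, had 217 in PDPN+ cells and 651 in ITGA8- cells, and Has2, a hyaluronan synthase, had 255 in PDPN+ cells and 709 in ITGA8- cells. On the other side, Rims2, a protein of vesicle release sites, had 820 in PDPN+ cells and 158 in ITGA8- cells. Spp1 (osteopontin), a secreted phosphoprotein, had 699 in PDPN+ cells and 177 in ITGA8- cells. Gas6, a ligand of the TAM receptors, had 2790 in PDPN+ cells and 926 in ITGA8- cells, and Anxa1, a phospholipid-binding protein, had 1667 in PDPN+ cells and 494 in ITGA8- cells. Kdr, Has2, Rims2, Spp1, Gas6 and Anxa1 were picked from the 327 after their values were seen.

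Some genes of stellate cells and submesothelial mesenchyme differed between the fractions. Of 24 members of the list, 23 were above the floor. In PDPN+ cells 6 were at least 2-fold lower (8.95% of all genes were), 1 was higher (against 8.43%) and 16 lay within 2-fold. In PDPN- cells 10 of the 23 were lower than in ITGA8+ cells and 0 higher, with a median of -0.80. Over all genes 26.8% were lower there. Whether the differences belong to the fraction or to the sort cannot be told apart. The median was -0.24, against -0.04 over all genes, and the summed intensity was 59933 in PDPN+ cells and 62072 in ITGA8- cells, against 65201 in PDPN- cells and 101589 in ITGA8+ cells. Lrat, the enzyme that stores retinol in stellate cells, was below the floor on all 4 arrays, with 23 in PDPN+ cells and 49 in ITGA8- cells.

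Ngfr, the low-affinity neurotrophin receptor of stellate cells and mesenchyme, had 154 in PDPN+ cells and 602 in ITGA8- cells, against 436 in PDPN- cells and 2466 in ITGA8+ cells. Hgf, hepatocyte growth factor, had 254 in PDPN+ cells and 856 in ITGA8- cells, against 314 in PDPN- cells and 495 in ITGA8+ cells. Gdf10, a secreted factor of the BMP family, had 1047 in PDPN+ cells and 2763 in ITGA8- cells, against 2494 in PDPN- cells and 10966 in ITGA8+ cells. For these 3 genes the PDPN+ array was the lowest of the 4. Pdgfrb, a PDGF receptor of mural and mesenchymal cells, also had its lowest value there, with 1555 in PDPN+ cells and 3518 in ITGA8- cells, against 2638 in PDPN- cells and 3279 in ITGA8+ cells. Lhx2, a LIM homeodomain factor of stellate cells, had 262 in PDPN+ cells and 595 in ITGA8- cells, and Ecm1, a secreted matrix protein, had 2416 in PDPN+ cells and 5106 in ITGA8- cells. Hlx, a homeobox factor of liver mesenchyme, was just inside 2-fold, with 1359 in PDPN+ cells and 2656 in ITGA8- cells.

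Other members of the same list were higher in PDPN+ cells or close on the 2 arrays. Hhip, an inhibitor of hedgehog ligands, had 940 in PDPN+ cells and 376 in ITGA8- cells, a difference of 1.29, against 164 in PDPN- cells and 211 in ITGA8+ cells. Reln (reelin), a large secreted glycoprotein, had 9305 in PDPN+ cells and 6008 in ITGA8- cells. Colec11, a secreted lectin, had 2105 in PDPN+ cells and 1202 in ITGA8- cells. Reln and Colec11 lay within 2-fold, and both were higher in PDPN- cells (14543 and 3614) and in ITGA8+ cells (13250 and 6291). Foxf1, a forkhead factor of the septum transversum mesenchyme, had 7981 in PDPN+ cells and 7003 in ITGA8- cells. Pdgfra, the other PDGF receptor, was lower in PDPN+ cells, with 7926 against 9816 in ITGA8- cells. Its 2 other probe sets above the floor had differences of -1.06 and -0.47.

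Transcription factors of the septum transversum and coelomic lining went the same way as the mesenchyme genes only in part. Of 21 above the floor, 0 were at least 2-fold higher and 5 were lower in PDPN+ cells: Tbx18, Tbx5, Osr1, Mab21l2 and Lhx2. The shares of all genes were 8.43% higher and 8.95% lower. Tbx5, a T-box factor of heart and forelimb, had 96 in PDPN+ cells and 539 in ITGA8- cells, against 18 in PDPN- cells and 579 in ITGA8+ cells. Osr1, an odd-skipped factor of intermediate and lateral mesoderm, had 33 in PDPN+ cells and 187 in ITGA8- cells, against 20 in PDPN- cells and 84 in ITGA8+ cells. The other 16 lay within 2-fold, among them Gata4, a zinc finger factor of the septum transversum (5354 in PDPN+ cells and 5522 in ITGA8- cells), Isl1, a LIM homeodomain factor (9140 in PDPN+ cells and 6158 in ITGA8- cells), and Tbx20, a T-box factor of heart and lateral mesoderm (6233 in PDPN+ cells and 3229 in ITGA8- cells).

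Of 22 collagen and matrix genes, 1 was higher and 2 were lower in PDPN+ cells, and the median was 0.23. These counts are near the shares of all genes, 8.43% higher and 8.95% lower. Col1a1 and Col3a1, the chains of the main fibrillar collagens, had 20881 and 20710 in PDPN+ cells and 16530 and 17058 in ITGA8- cells. Mgp, an inhibitor of calcification, had 1043 in PDPN+ cells and 4324 in ITGA8- cells, against 194 in PDPN- cells and 3939 in ITGA8+ cells. Vcan (versican), a large proteoglycan, had 2794 in PDPN+ cells and 8432 in ITGA8- cells, against 1095 in PDPN- cells and 8419 in ITGA8+ cells. Both genes were therefore about as high in ITGA8+ cells as in ITGA8- cells. The 1 higher gene was Col14a1, a collagen associated with fibrils, with 2739 in PDPN+ cells and 1120 in ITGA8- cells.

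Of 21 basement membrane genes, 2 were higher and 4 lower, against 8.43% and 8.95% of all genes. The laminin chains Lama4 (243 in PDPN+ cells and 969 in ITGA8- cells), Lama1 (248 in PDPN+ cells and 684 in ITGA8- cells) and Lama2 (185 in PDPN+ cells and 400 in ITGA8- cells) were lower, with the collagen IV chain Col4a2 (1284 in PDPN+ cells and 2653 in ITGA8- cells). All 4 were higher in ITGA8+ cells than in ITGA8- cells. The other collagen IV chain of the same molecule, Col4a1, had 1646 in PDPN+ cells and 3262 in ITGA8- cells, just inside 2-fold. Col4a3, a collagen IV chain of specialised basement membranes, had 338 in PDPN+ cells and 64 in ITGA8- cells, and Frem2, a partner of Fras1, had 7638 in PDPN+ cells and 3786 in ITGA8- cells. The chains of the epithelial network lay within 2-fold: Col4a5 had 5800 in PDPN+ cells and 3772 in ITGA8- cells, and Lama5 had 4215 in PDPN+ cells and 3265 in ITGA8- cells.

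Of 28 secreted growth factors above the floor, 2 were higher and 7 lower in PDPN+ cells, against 8.43% and 8.95% of all genes. Tgfb1, a TGF-beta ligand, had 207 in PDPN+ cells and 889 in ITGA8- cells, against 92 in PDPN- cells and 1552 in ITGA8+ cells. Bmp4, a BMP ligand of the septum transversum, had 181 in PDPN+ cells and 780 in ITGA8- cells, against 107 in PDPN- cells and 1065 in ITGA8+ cells. Igf1, an insulin-like growth factor, had 2488 in PDPN+ cells and 6542 in ITGA8- cells, against 427 in PDPN- cells and 4690 in ITGA8+ cells. The other lower ligands were Hgf, Gdf10, Bmp2 and Tgfb2. The 2 higher were Kitl, the ligand of the Kit receptor, with 5693 in PDPN+ cells and 2435 in ITGA8- cells, and Thpo (thrombopoietin), with 463 in PDPN+ cells and 174 in ITGA8- cells. Both were higher still in PDPN- cells, with 8159 for Kitl and 1039 for Thpo, against 1676 and 160 in ITGA8+ cells.

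In the handling of retinoids 3 of 13 genes were lower and 0 higher, against 8.95% and 8.43% of all genes. Cyp26a1, which breaks down retinoic acid, had 13 in PDPN+ cells and 169 in ITGA8- cells. Stra6, the receptor for retinol-binding protein, had 299 in PDPN+ cells and 713 in ITGA8- cells, and Crabp2, a retinoic acid carrier, had 1658 in PDPN+ cells and 3413 in ITGA8- cells. Of 9 portal fibroblast genes, 3 were lower and 0 higher, against the same shares of all genes. Fap, a surface protease of activated fibroblasts, had 15 in PDPN+ cells and 778 in ITGA8- cells, against 30 in PDPN- cells and 1539 in ITGA8+ cells. Mfap4, a microfibril protein, had 1911 in PDPN+ cells and 4432 in ITGA8- cells, and Meox2, a homeobox factor of mesoderm, had 80 in PDPN+ cells and 177 in ITGA8- cells. In the smooth muscle list 1 of 11 was lower, a share near the 8.95% of all genes. It was Myocd, a coactivator of smooth muscle genes, with 108 in PDPN+ cells and 411 in ITGA8- cells.

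**Figure D3:**
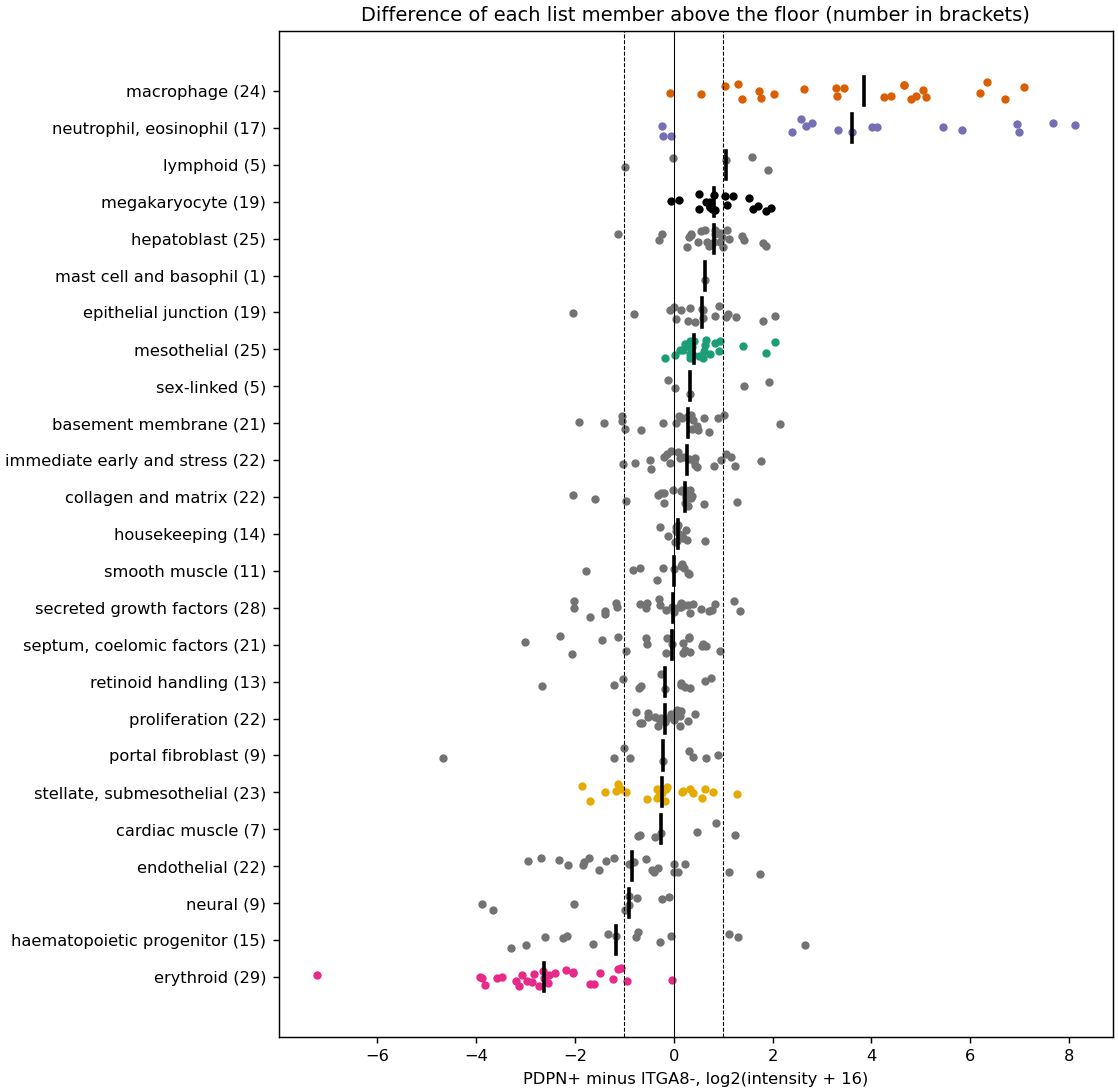
Differences in log2(intensity + 16), PDPN+ minus ITGA8- (horizontal), of the members above the floor of 25 gene lists, 1 point per gene, with the median as a bar, the number of genes in brackets and dashed lines at 2-fold. The macrophage (median 3.85) and neutrophil and eosinophil (3.61) lists lie far to the right, the erythroid list (-2.63) far to the left, and the mesothelial (0.40) and stellate (-0.24) lists near 0.

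Of the 25 lists, the macrophage, neutrophil and eosinophil, and erythroid lists had the medians farthest from 0, and they went in opposite directions for different lineages. Among single genes, 10 of the 12 largest differences toward PDPN+ cells belong to the blood lists, and of the 12 largest toward ITGA8- cells Ctse alone does. Of 17 neutrophil and eosinophil genes above the floor, 14 were at least 2-fold higher in PDPN+ cells and 0 lower, with a median of 3.61. Of 24 macrophage genes, 22 were higher and 0 lower, with a median of 3.85. Of 29 erythroid genes, 27 were lower and 0 higher, with a median of -2.63. The floor had a part in these counts: 16 of the 17 neutrophil and eosinophil genes were above it in PDPN+ cells and 3 in ITGA8- cells, and all 24 macrophage genes were above it in PDPN+ cells and 12 in ITGA8- cells, so most members entered through the array where they were high. Of the erythroid genes 24 were above it in PDPN+ cells and 29 in ITGA8- cells. Over all genes 8.43% were higher and 8.95% lower. Without the genes of the 7 blood lists, 1123 genes were higher and 1211 lower.

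S100a9, with S100a8 a subunit of the calprotectin of neutrophils, had 11903 in PDPN+ cells and 27 in ITGA8- cells, against 33 in PDPN- cells and 36 in ITGA8+ cells. S100a8 had 8407 in PDPN+ cells and 25 in ITGA8- cells, against 16 in PDPN- cells and 17 in ITGA8+ cells. Camp, the cathelicidin of neutrophil granules, had 2490 in PDPN+ cells and 41 in ITGA8- cells, against 4 in PDPN- cells and 25 in ITGA8+ cells. These 3 genes were above the floor on the PDPN+ array only. The same held for Prg2, the major basic protein of eosinophils, with 3077 in PDPN+ cells and 9 in ITGA8- cells, and for Stfa2l1, a cystatin-type protease inhibitor, with 4149 in PDPN+ cells and 17 in ITGA8- cells. Stfa2l1 and Stfa3 are close copies that can share probes, as are Ear1 and its relatives, so their separate values are uncertain; Ear1, a ribonuclease of eosinophils, had 1838 in PDPN+ cells and 3 in ITGA8- cells. Lcn2, a siderophore-binding protein, was an exception, since it was above the floor on both arrays of the PDPN sort, with 663 in PDPN+ cells and 26 in ITGA8- cells, against 699 in PDPN- cells and 95 in ITGA8+ cells. The granule proteins of early myeloid cells did not follow. Mpo (myeloperoxidase) had 1553 in PDPN+ cells and 1618 in ITGA8- cells, against 1 in PDPN- cells and 2532 in ITGA8+ cells, and Prtn3, a serine protease, had 187 in PDPN+ cells and 220 in ITGA8- cells. The defining genes of the list below the floor on both arrays were Csf3r, Elane, Mmp8, Itgb2l, Chil3, Padi4 and Cxcr2.

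C1qb, a chain of C1q, had 9462 in PDPN+ cells and 54 in ITGA8- cells, against 39 in PDPN- cells and 315 in ITGA8+ cells. Csf1r, the receptor for the macrophage growth factor CSF1, had 5357 in PDPN+ cells and 139 in ITGA8- cells, against 81 in PDPN- cells and 427 in ITGA8+ cells. Adgre1, which encodes the macrophage antigen F4/80, had 1169 in PDPN+ cells and 31 in ITGA8- cells, against 19 in PDPN- cells and 44 in ITGA8+ cells. On all 3 the PDPN+ array was the highest of the 4 by a wide margin. Genes known from Kupffer cells and fetal liver macrophages were among the 22: Cd5l, a secreted scavenger receptor protein, had 2327 in PDPN+ cells and 13 in ITGA8- cells, Timd4, a phosphatidylserine receptor, had 476 in PDPN+ cells and 63 in ITGA8- cells, and Clec4f, a lectin, had 265 in PDPN+ cells and 13 in ITGA8- cells. The 2 measured macrophage genes that did not pass the floor were Vsig4 (3 in PDPN+ cells and 1 in ITGA8- cells) and Cd163 (31 in PDPN+ cells and 11 in ITGA8- cells). Both were below it on all 4 fraction arrays. The 2 genes within 2-fold were the receptor kinases Mertk (1729 in PDPN+ cells and 1178 in ITGA8- cells) and Axl (2011 in PDPN+ cells and 2127 in ITGA8- cells). Ctss, a lysosomal protease, had 6370 in PDPN+ cells and 45 in ITGA8- cells. Fcna, a ficolin, had 1892 in PDPN+ cells and 17 in ITGA8- cells, and Tyrobp, a signalling adaptor of myeloid cells, had 3493 in PDPN+ cells and 123 in ITGA8- cells. Lyz1 and Lyz2, the lysozymes, are close copies. Lyz1 had a difference of 4.90, and its 1 other probe set above the floor had 5.55. Without probe sets that carry a letter suffix it was -0.60, from a probe set not above the floor on either array. Ptprc, the pan-leukocyte antigen CD45, had 907 in PDPN+ cells and 131 in ITGA8- cells, against 24 in PDPN- cells and 178 in ITGA8+ cells.

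The summed intensity of the neutrophil and eosinophil list was 37106 in PDPN+ cells and 2465 in ITGA8- cells, against 1053 in PDPN- cells and 3743 in ITGA8+ cells. That of the macrophage list was 66985 in PDPN+ cells and 9546 in ITGA8- cells, against 3890 in PDPN- cells and 14463 in ITGA8+ cells. The PDPN+ array thus stood apart from the other 3 in both lists. Of the 4 arrays, it alone was above the floor for 357 genes, of which 26 (7.28%) belong to the blood lists, against 0.791% of all genes above the floor. Of the 357, 33 exceeded 500, and 14 of these 33 belong to the blood lists. The 357 were chosen for being high on that array, and the lists were written with earlier results of these data known. These shares are therefore a description only. The part of these cells in the other differences was not tested.

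Megakaryocyte genes differed less. All 19 of the list were above the floor, and the median was 0.82. In PDPN+ cells 8 were at least 2-fold higher and 0 lower, against 8.43% and 8.95% of all genes. Ppbp, the platelet basic protein, had 7788 in PDPN+ cells and 2385 in ITGA8- cells, against 7 in PDPN- cells and 6432 in ITGA8+ cells. Clec1b, which encodes the platelet receptor that binds PDPN, had 3700 in PDPN+ cells and 1204 in ITGA8- cells, against 57 in PDPN- cells and 3340 in ITGA8+ cells. Pf4, a chemokine of platelet granules, had 16547 in PDPN+ cells and 9917 in ITGA8- cells, against 56 in PDPN- cells and 17111 in ITGA8+ cells. The summed intensity of the list was 55804 in PDPN+ cells and 28754 in ITGA8- cells, against 916 in PDPN- cells and 67425 in ITGA8+ cells, so that the array of PDPN- cells stood apart here. Gp6, a collagen receptor of platelets, had 165 in PDPN+ cells and 30 in ITGA8- cells, and Itga2b, the alpha subunit of the platelet fibrinogen receptor, had 571 in PDPN+ cells and 526 in ITGA8- cells.

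Erythroid genes were lower in PDPN+ cells almost throughout. Klf1, the erythroid Krüppel-like factor, had 559 in PDPN+ cells and 6801 in ITGA8- cells, against 331 in PDPN- cells and 11851 in ITGA8+ cells. Gata1, the zinc finger factor of erythroid cells and megakaryocytes, had 856 in PDPN+ cells and 4566 in ITGA8- cells, against 155 in PDPN- cells and 8483 in ITGA8+ cells. Epor had 121 in PDPN+ cells and 2064 in ITGA8- cells, against 70 in PDPN- cells and 2830 in ITGA8+ cells. In these 3 genes both arrays of the PDPN sort were low and both arrays of the ITGA8 sort were high. Ctse (cathepsin E), an aspartic protease of the erythroid lineage, had the largest difference of the list, -7.22, with 21 in PDPN+ cells and 5518 in ITGA8- cells, against 46 in PDPN- cells and 2883 in ITGA8+ cells. Alas2 had 537 in PDPN+ cells and 1667 in ITGA8- cells, against 526 in PDPN- cells and 1597 in ITGA8+ cells. The embryonic globin Hbb-y had 1523 in PDPN+ cells and 9587 in ITGA8- cells, and globin genes can share probes, so their values are uncertain. The 2 genes within 2-fold were Tfrc, the transferrin receptor, with 7384 in PDPN+ cells and 14224 in ITGA8- cells, and Bpgm, the bisphosphoglycerate mutase of red cells, with 1568 in PDPN+ cells and 1603 in ITGA8- cells. The summed intensity of the list was 33857 in PDPN+ cells and 129360 in ITGA8- cells, against 27162 in PDPN- cells and 156698 in ITGA8+ cells.

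Progenitor genes were mostly lower as well. Of 15 above the floor, 8 were at least 2-fold lower in PDPN+ cells and 3 higher, against 8.95% and 8.43% of all genes. Myb, a factor of haematopoietic progenitors, had 1073 in PDPN+ cells and 10636 in ITGA8- cells, against 240 in PDPN- cells and 10987 in ITGA8+ cells. Ikzf1 (Ikaros), a zinc finger factor of blood progenitors and lymphocytes, had 856 in PDPN+ cells and 5262 in ITGA8- cells, and Lmo2, a LIM domain partner of Tal1 and Gata1, had 971 in PDPN+ cells and 4655 in ITGA8- cells. The 3 higher genes were Ptprc, Cd48 and Spi1, which encodes PU.1 and had 166 in PDPN+ cells and 68 in ITGA8- cells. In the lymphoid list, 5 of 16 measured genes were above the floor, and in the mast cell and basophil list 1 of 12. The B-lineage factor Ebf1 had a difference of 1.90. Without probe sets that carry a letter suffix it was -1.75, but that probe set was not above the floor on either array.

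**Figure D4:**
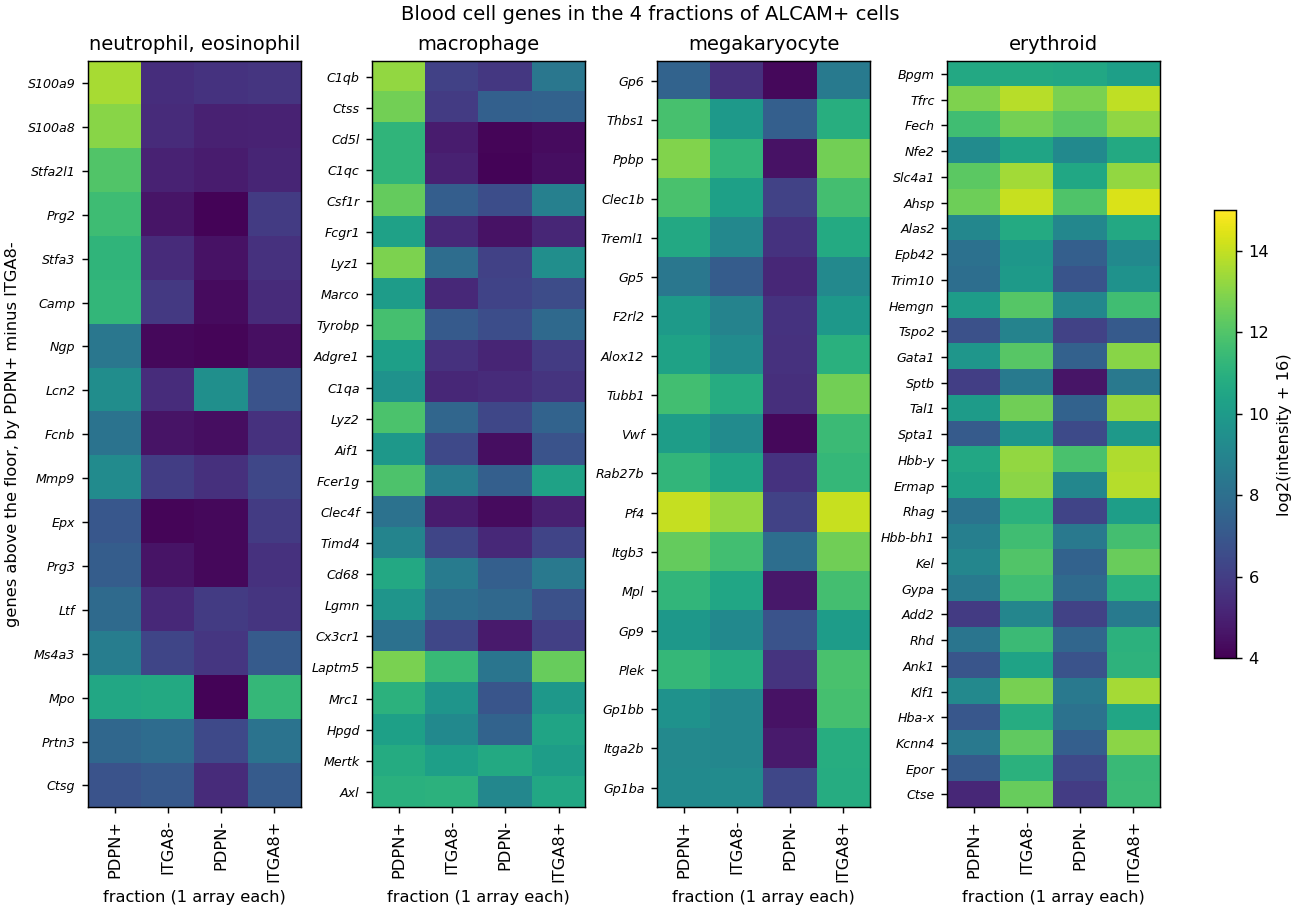
Log2(intensity + 16) (colour) of the genes above the floor in 4 blood lists (vertical, ordered by PDPN+ minus ITGA8-) on the 4 fraction arrays (horizontal). Most neutrophil and macrophage genes are brightest on the PDPN+ array, megakaryocyte genes are dark on the PDPN- array, and erythroid genes other than Bpgm are brighter on both ITGA8 arrays than on both PDPN arrays.

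The pair crosses 2 sorts, so a difference between PDPN+ and ITGA8- cells could belong to the fraction or to the sort, and these cannot be told apart from the pair alone. The other pair of arrays, PDPN- minus ITGA8+, shares no array with it and crosses the same sorts. Over the same 13915 genes, 1874 (13.5%) were at least 2-fold higher in PDPN- cells than in ITGA8+ cells and 3728 (26.8%) were lower. Of the 1246 genes lower in PDPN+ cells, 888 (71.27%) were also lower in PDPN- cells than in ITGA8+ cells, which is 23.82% of the 3728, and 11 were higher there. Of the 1173 genes higher in PDPN+ cells, 598 (50.98%) were also higher in PDPN- cells than in ITGA8+ cells, which is 31.91% of the 1874, while 239 (20.38%) were lower there. The correlation of the 2 differences across genes, which are not independent replicates, was 0.45 (Pearson) and 0.45 (Spearman).

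Erythroid genes were in the group that differed alike in both pairs: 26 of 29 were lower in PDPN- cells than in ITGA8+ cells, with a median of -3.19. Neutrophil and macrophage genes were not: 1 of 17 and 1 of 24 were higher in PDPN- cells than in ITGA8+ cells, and 10 and 14 were lower. No floor was applied to this pair. Of 24 measured neutrophil and eosinophil genes, 1 was above it in PDPN- cells and 4 in ITGA8+ cells. Of 26 measured macrophage genes, 8 and 13 were. Many of these lower values are therefore differences between low signals, whose direction is uncertain. All 19 megakaryocyte genes were lower in PDPN- cells than in ITGA8+ cells, with a median of -5.52, opposite to the 8 that were higher in PDPN+ than in ITGA8- cells. Of the mesothelial list 16 of 25 were lower in PDPN- cells than in ITGA8+ cells and 3 were higher. Of the stellate and submesothelial list 10 of 23 were lower there and 0 higher, and of the endothelial list 18 of 22 were lower and 1 higher. Over all genes 26.8% were lower there and 13.5% higher.

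Several of the largest single differences were of nearly the same size in the other pair. The transcript AI506816 had 4 in PDPN+ cells and 3762 in ITGA8- cells, against 3 in PDPN- cells and 3752 in ITGA8+ cells. Mela, a gene of the melanoma antigen type that derives from a retrovirus, had 1 in PDPN+ cells and 1205 in ITGA8- cells, against 6 in PDPN- cells and 1208 in ITGA8+ cells. AI661323 had 2 in PDPN+ cells and 844 in ITGA8- cells, against 17 in PDPN- cells and 664 in ITGA8+ cells. For these 3 the arrays of the same sort had like values and the sorts differed. In all, 507 genes (3.64%) were at or below the floor in both arrays of the PDPN sort and above it in both arrays of the ITGA8 sort, 19 of them above 500 in both. The opposite was found for 0.783% of genes, of which 1, Lcn2, was above 500 in both. Tmem87a, a membrane protein of the Golgi, had 157 in PDPN+ cells and 2873 in ITGA8- cells, against 134 in PDPN- cells and 1346 in ITGA8+ cells. Further genes of this size were lower on both arrays of the PDPN sort than on both of the ITGA8 sort. Hesx1, a homeobox factor, had 32 in PDPN+ cells and 1164 in ITGA8- cells, against 8 in PDPN- cells and 654 in ITGA8+ cells. Fabp4, a fatty acid carrier, had 31 in PDPN+ cells and 952 in ITGA8- cells, against 24 in PDPN- cells and 471 in ITGA8+ cells. Six4, a homeobox factor, had 37 in PDPN+ cells and 901 in ITGA8- cells, against 28 in PDPN- cells and 831 in ITGA8+ cells. Bcat1, an enzyme of branched-chain amino acids, and Thbd (thrombomodulin), an anticoagulant receptor, had the same order, with 124 for Bcat1 and 200 for Thbd in PDPN+ cells and 2122 for Bcat1 and 2700 for Thbd in ITGA8- cells. Foxc2, a forkhead factor of mesenchyme and vessels, had 200 in PDPN+ cells and 2658 in ITGA8- cells, against 444 in PDPN- cells and 3608 in ITGA8+ cells.

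**Figure D5:**
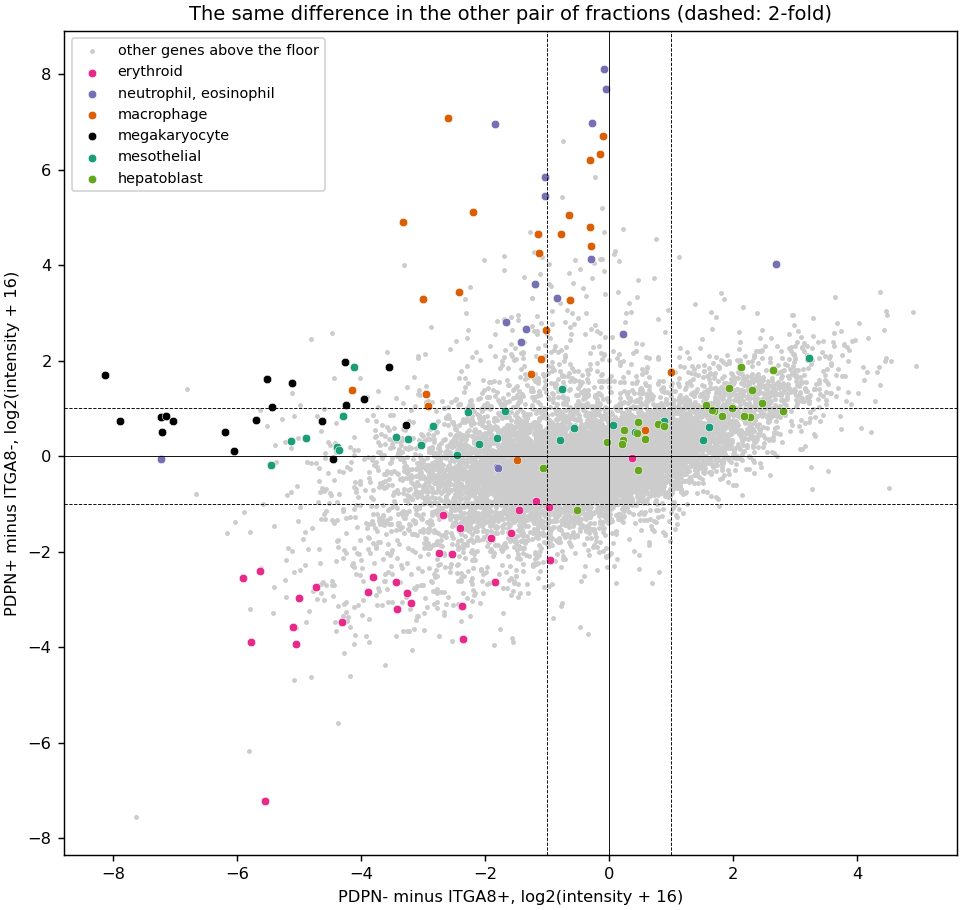
Each point is a gene above the floor, with PDPN- minus ITGA8+ (horizontal) and PDPN+ minus ITGA8- (vertical), both in log2(intensity + 16), and dashed lines at 2-fold. Erythroid genes are low on both axes, and most neutrophil and macrophage genes are high on the vertical axis only. Of 25 hepatoblast genes, 7 are at least 2-fold higher on the vertical axis (median 0.81) and 13 on the horizontal (median 1.56).

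Hepatoblast genes were present on both arrays. Of 25 above the floor, 7 were at least 2-fold higher in PDPN+ cells (8.43% of all genes were) and 1 was lower (against 8.95%), with a median of 0.81. In PDPN- cells 13 were higher than in ITGA8+ cells (13.5% of all genes were), with a median of 1.56. Ahsg, a secreted plasma glycoprotein, had 10290 in PDPN+ cells and 2917 in ITGA8- cells, against 16444 in PDPN- cells and 2609 in ITGA8+ cells. Foxa3, a forkhead factor of endoderm, had 2025 in PDPN+ cells and 540 in ITGA8- cells, against 4103 in PDPN- cells and 930 in ITGA8+ cells. Prox1, a homeobox factor of hepatoblasts, had 8328 in PDPN+ cells and 3173 in ITGA8- cells, against 10545 in PDPN- cells and 2106 in ITGA8+ cells. All 3 were higher on both arrays of the PDPN sort. The genes of the most abundant liver proteins differed less, with Afp (alpha-fetoprotein) at 30501 in PDPN+ cells and 24675 in ITGA8- cells and Alb (albumin) at 23591 in PDPN+ cells and 18532 in ITGA8- cells. Car3, a carbonic anhydrase, was among the largest differences with both arrays above the floor, with 7060 in PDPN+ cells and 637 in ITGA8- cells, against 14474 in PDPN- cells and 683 in ITGA8+ cells.

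Several epithelial junction genes had the same order of arrays. Of 19 above the floor, 5 were higher in PDPN+ cells (8.43% of all genes were) and 1 was lower (against 8.95%), with a median of 0.57. In PDPN- cells 10 were higher than in ITGA8+ cells (13.5% of all genes were). Beside Cdh1, Perp, a desmosomal protein, had 3597 in PDPN+ cells and 1010 in ITGA8- cells, against 7592 in PDPN- cells and 573 in ITGA8+ cells. Ocln (occludin), a tight junction protein, had 1117 in PDPN+ cells and 510 in ITGA8- cells, against 1959 in PDPN- cells and 196 in ITGA8+ cells. Cdh1, Perp and Ocln were thus high where hepatoblast genes were high, and the part of hepatoblasts in these differences was not tested. Tjp1 (ZO-1), a scaffold of tight junctions, had 10198 in PDPN+ cells and 10159 in ITGA8- cells. The 1 lower gene was the claudin Cldn6, with 72 in PDPN+ cells and 344 in ITGA8- cells.

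Of 22 endothelial genes, 10 were lower and 2 higher in PDPN+ cells, against 8.95% and 8.43% of all genes, with a median of -0.85. Another 10 lay within 2-fold, among them Tek (1375 in PDPN+ cells and 1171 in ITGA8- cells) and Flt4 (2137 in PDPN+ cells and 2688 in ITGA8- cells). In PDPN- cells 18 were lower than in ITGA8+ cells (26.8% of all genes were), with a median of -2.43. Oit3, known from liver sinusoidal endothelium, had 71 in PDPN+ cells and 652 in ITGA8- cells, against 36 in PDPN- cells and 488 in ITGA8+ cells. Lyve1, the hyaluronan receptor of sinusoidal and lymphatic endothelium, had 195 in PDPN+ cells and 729 in ITGA8- cells, against 77 in PDPN- cells and 690 in ITGA8+ cells. Flt1, a VEGF receptor, had 100 in PDPN+ cells and 495 in ITGA8- cells, against 7 in PDPN- cells and 434 in ITGA8+ cells. The defining junction gene Cdh5 (VE-cadherin) was near or below the floor on every array, with 92 in PDPN+ cells and 143 in ITGA8- cells, against 10 in PDPN- cells and 107 in ITGA8+ cells. Stab1, a scavenger receptor of sinusoidal endothelium and macrophages, was higher, with 1648 in PDPN+ cells and 749 in ITGA8- cells.

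Of 9 neural genes 3 were lower and 0 higher, against 8.95% and 8.43% of all genes. Dcx (doublecortin), a microtubule protein of young neurons, had 21 in PDPN+ cells and 533 in ITGA8- cells, against 314 in PDPN- cells and 950 in ITGA8+ cells. Sox10, a factor of neural crest and glia, had 4 in PDPN+ cells and 238 in ITGA8- cells, against 25 in PDPN- cells and 393 in ITGA8+ cells. In the cardiac muscle list 1 of 7 was higher and 0 lower, against the same shares of all genes. It was Tnni1, a slow troponin I, with 2206 in PDPN+ cells and 921 in ITGA8- cells.

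Of 22 immediate early and stress genes, 4 were higher and 1 lower in PDPN+ cells, against 8.43% and 8.95% of all genes. Atf3, a stress-induced factor, had 1310 in PDPN+ cells and 376 in ITGA8- cells, and Nr4a1, an orphan nuclear receptor, had 2139 in PDPN+ cells and 894 in ITGA8- cells. Of 22 proliferation genes and 14 housekeeping genes, 0 were past 2-fold in either direction. The Y-linked genes Ddx3y (2243 in PDPN+ cells and 824 in ITGA8- cells) and Kdm5d (495 in PDPN+ cells and 119 in ITGA8- cells) were higher in PDPN+ cells and also higher in PDPN- cells than in ITGA8+ cells, with 2967 and 513 in PDPN- cells against 889 and 166 in ITGA8+ cells. Xist, transcribed from the inactive X chromosome, had 12392 in PDPN+ cells and 12097 in ITGA8- cells, and Eif2s3y, a further Y-linked gene, had 1181 in PDPN+ cells and 1281 in ITGA8- cells, so that the Y-linked genes did not all go 1 way.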

How the data were processed

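RNA was measured on Affymetrix Mouse Genome 430 2.0 arrays, 1 per group. Biotin-labelled probes were made from 20 ng of total RNA, per the labels' protocols. The authors deposited linear intensity values rounded to whole numbers. RMA and Partek are named, without versions, per the submitters' processing notes; the values reach 0 and share a trimmed mean, which is unlike usual RMA output, so how the fraction arrays were made is unsure. The 4 fraction arrays share a trimmed mean (996.0 to 996.8). The ALCAM+ (330.6) and liver (196.0) arrays lie on other scales, so their levels were not compared. No genome build is given for the arrays.

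Of 45101 probe sets, 64 controls and those naming no or several genes were left out. The 38011 others name 20678 genes; symbols came through Entrez identifiers from a RefSeq table of GRCm38.p6 (92.11% matched). Differences are log2(intensity + 16), counted at 2-fold, with the median of all values as a floor, computed with Python 3.11.15, numpy 2.4.6, pandas 2.3.3 and statsmodels 0.14.6 and tested on simulated data. The 25 gene lists hold 489 distinct genes, 20 of them in more than 1 list, and 9 were not measured. Genes were named from a rule, though not every gene it gives is printed: the sort and mesothelial markers, the 12 largest differences each way, the 10 largest with both arrays above the floor, members of the mesothelial and stellate lists, the 3 largest past 2-fold each way in the other lists, and the 10 closest shared genes; other genes of a list or group were chosen after their values were seen. The comparison, its lists and tests were chosen with earlier results of these data known. Promoter motifs were searched on both strands. With 1 array per group their number limits precision and no test was run. Pseudocount, floor, probe set choice, scaling and fold were varied.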

Additional observations from a re-analysis of the deposited data

Results flagged for a closer look

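The megakaryocyte list went in opposite directions in the 2 sorts. Its median difference was 5.03 in PDPN+ minus PDPN- and -1.46 in ITGA8- minus ITGA8+, on the log2 scale. Pf4 had 16547 in PDPN+ cells and 56 in PDPN- cells, and 9917 in ITGA8- cells and 17111 in ITGA8+ cells. With 1 array per fraction, the difference between the sorts was not tested.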

How the results depend on the processing

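No paired analysis was possible because each group has 1 array and the labels carry no replicate numbers to pair. With a pseudocount of 1 the neutrophil and eosinophil median was 4.95 and the macrophage median 4.31; with 64 they were 2.50 and 3.22. Without the floor they were 2.62 and 3.37, with a floor of 400 they were 5.84 and 4.33, and after the loess adjustment 4.57 and 4.30. Quantile normalisation of the 4 fraction arrays gave 4.08 for the neutrophil and eosinophil list, and the median over a gene's probe sets gave 3.31 for the macrophage list. Genes lower in PDPN+ cells numbered 2570 without the floor, 611 with a floor of 400 and 774 after the loess adjustment; those lower in both pairs numbered 1492, 464 and 505 in the same settings. At 4-fold, 275 genes were higher and 301 lower. With a floor of 400 the shared genes numbered 211. Chosen after seeing the data, leaving out genes that differed the same way in PDPN- minus ITGA8+ left 575 higher and 358 lower. The cause of these shifts was not tested.

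Ebf1 turned to -0.77 with the median over its probe sets. Without probe sets that carry a letter suffix, Ebf1 turned to -1.75, Lyz1 turned to -0.60 and Fcgr2b fell to 0. The probe sets behind these last values were not above the floor on either array. Of 107 named genes past 2-fold, 101 to 107 kept direction and 2-fold under the other pseudocounts, floors, probe set choices and scalings tried. The exception was the setting without letter suffixes, where 96 of them had a probe set and 88 of the 96 did. Signals near the floor limit the sizes of the folds. Values of array pairs have no replicate check.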

Other observations

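Genes with both arrays of the PDPN sort above the floor and both arrays of the ITGA8 sort at or below it made up 0.783% of all genes. Cd74, the invariant chain of MHC class II, had 721 in PDPN+ cells and 25 in ITGA8- cells, against 180 in PDPN- cells and 74 in ITGA8+ cells. Gstm6, a glutathione S-transferase, had 412 in PDPN+ cells and 37 in ITGA8- cells, against 1178 in PDPN- cells and 24 in ITGA8+ cells. Hp (haptoglobin) had 277 in PDPN+ cells and 65 in ITGA8- cells, against 505 in PDPN- cells and 40 in ITGA8+ cells.

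Hoxb5, a homeobox gene, was at or below the floor on both arrays of the PDPN sort. It had 100 in PDPN+ cells and 1395 in ITGA8- cells, against 45 in PDPN- cells and 1997 in ITGA8+ cells. Foxc1, a forkhead factor of mesenchyme, had 90 in PDPN+ cells and 1059 in ITGA8- cells, against 41 in PDPN- cells and 1098 in ITGA8+ cells. Itga9, an integrin alpha subunit, had 84 in PDPN+ cells and 848 in ITGA8- cells, against 74 in PDPN- cells and 1479 in ITGA8+ cells, but its 2 other probe sets above the floor had differences of -0.59 and -0.26. All genes given here were picked after their values were seen.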
